A study of Mus musculus with 46 samples.

Results

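The heart stored in the cold was followed on 7 of the 46 arrays of the series. Pieces of mouse heart had been kept at 4 °C for 1, 3 and 6 h (early, 3 arrays), for 12 h (1 array) or for 24, 48 and 96 h (late, 3 arrays), and the late arrays were compared with the early ones. The arrays were taken by tissue, temperature and storage time as given in the labels. The heart array of 0 h in the cold had been set aside for low quality and was left out of the main comparisons. It was counted as early only in an alternative given near the end. The 12 h array, for which the methods give 14 h, is shown between the groups and enters only the analyses over time.

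MiRNAs were measured in heart, liver and brain of mice while the tissues aged at 4 °C or at room temperature (RT), to ask how the ageing of a tissue alters its miRNA profile. The animals were male C57BL6 mice of an Il1a knock-out strain, so that early, late and RT samples all carried this allele, and their age is not given in the sources used here. Storage was ended by putting a piece into an RNA preservative, so that each hour stands for a separate piece of the organ. All 7 pieces came from the heart of 1 animal, and each storage time was measured once. The p-values below therefore measure only the spread between these arrays, whose small number limits the precision.

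MiRNAs are short RNAs cut from hairpin precursors that guide Argonaute proteins to messenger RNAs. The bases near the 5′ end of the miRNA, the seed, do most of the pairing with the target. Both arms of a hairpin can give a mature miRNA (5p and 3p), and bound to Argonaute most miRNAs outlast messenger RNA. In heart, miR-1 and miR-133 are the typical miRNAs of the muscle cells, miR-126 is that of the endothelium, and miR-451a and miR-144 come from red blood cells.

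The RNA of all 7 pieces was largely intact. The RNA integrity number (RIN, at most 10 for intact RNA) was 8.8, 8.5 and 8.6 at 1, 3 and 6 h, 8.5 at 12 h, and 8.6, 8.5 and 8.1 at 24, 48 and 96 h. Only the 96 h piece lay below the others, by 0.4 or more. The 5 heart muscle markers miR-1a-3p, miR-133a-3p, miR-133b-3p, miR-208a-3p and miR-499-5p were detected on every array, the skeletal muscle marker miR-206-3p on none, and of 2 brain markers 1 was detected on the 1 h array alone. On the slide, the 1, 3 and 6 h arrays lay in one row and the 12 to 96 h arrays in the other, so that early or late and slide row cannot be told apart in the comparison of the groups. Time within each row was followed in a fit with the row as a block.

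The sequences of the miRNAs with the clearest time courses are shown first, since several of them share letters. Each is printed 5′ to 3′ with the seed (bases 2 to 8) in capitals, and sequences and positions on the mouse genome (GRCm38.p6) are those of RefSeq. The first set was higher in the late arrays.
miR-344i: aAGUCAGGcuccuggcugga
miR-134-5p: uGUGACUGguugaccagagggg
miR-804: uGUGAGUUguuccucaccugga
miR-1198-5p: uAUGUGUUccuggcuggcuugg
miR-6538: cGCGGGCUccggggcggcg
miR-3058-3p: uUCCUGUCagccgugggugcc
miR-452-5p: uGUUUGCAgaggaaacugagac
miR-6937-5p: uAGCUGUAagggcugggucugugu
miR-7047-5p: uGAGGGAGgagggcugggucuga

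The second set was lower in the late arrays, or is needed to read the bright signals that were.
miR-652-5p: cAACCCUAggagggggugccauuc
miR-127-3p: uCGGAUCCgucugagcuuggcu
miR-7234-3p: aAACGUCUuucuaggguagaagg
miR-6366: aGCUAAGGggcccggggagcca
miR-3968: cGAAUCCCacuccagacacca
miR-5100: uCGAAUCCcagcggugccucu
miR-3963: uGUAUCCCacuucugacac

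All 9 seeds of the first set and all 7 of the second differ from each other. MiR-344i lies at chr7:62085281-62085300 on the minus strand, miR-804 at chr11:50357799-50357820 on the minus strand, miR-1198-5p at chrX:7807142-7807163 on the plus strand and miR-652-5p at chrX:142739020-142739043 on the plus strand. MiR-127-3p at chr12:109592888-109592909 and miR-134-5p at chr12:109734145-109734166, both on the plus strand, belong to the imprinted Dlk1-Dio3 region, and they moved in opposite directions.

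**Figure D1:**
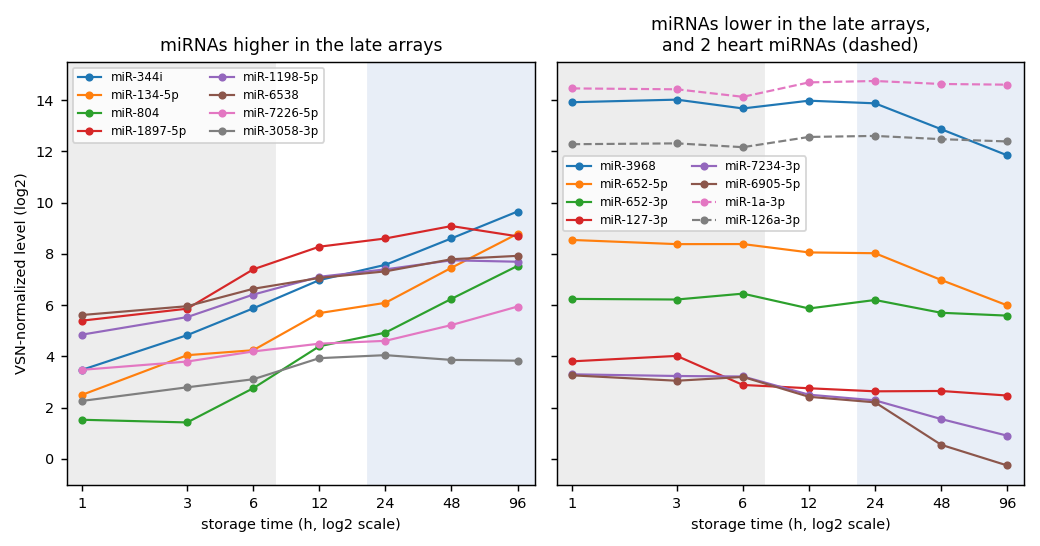
VSN-normalized log2 level (vertical axis) of single miRNAs in the heart at 4 °C against storage time in hours (horizontal axis, log2 scale), 1 array per point, with the early hours shaded grey and the late hours blue. On the left, miR-344i climbs from 3.48 at 1 h to 9.66 at 96 h; on the right, miR-652-5p goes from 8.55 to 5.99, while miR-1a-3p (dashed) stays between 14.13 and 14.75.

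Most miRNAs of the heart kept their level through 96 h in the cold. Levels are log2 values after variance stabilizing normalization (VSN), and 815 of the 1881 miRNAs on the array were tested. Of the 369 miRNAs detected on all 6 early and late arrays, 348 (94.3%) differed by less than 2-fold between the group means, with a median difference, late minus early, of 0.06 and a range from the 5th to the 95th percentile of -0.55 to 0.91. Among the 365 miRNAs detected on all 7 arrays, 271 (74.2%) varied by less than 2-fold over the whole time course.

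Of the 815 miRNAs, 0 (0%) were called by limma at an adjusted p below 0.05, and the smallest adjusted p was 0.0730. At an unadjusted p below 0.05 there were 82 higher and 45 lower, and an exact Wilcoxon-Mann-Whitney test, which for 3 arrays against 3 cannot go below p = 0.10, called 0 as well. By the values alone, every late value lay above every early value for 148 miRNAs (18.2% of all tested) and below for 64 (7.85%). A mean difference of 2-fold or more was found for 47 miRNAs upwards (5.77%) and for 41 downwards (5.03%). These counts include undetected miRNAs, as 319 of the 815 were detected on none of the 6 arrays. Among the 369 detected on all 6, 17 were higher and 4 lower by 2-fold or more. The 12 h value already lay beyond all 3 early values for 124 of the 148 and for 56 of the 64.

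The count of 0 rested on the 24 h array. Without it limma called 42 miRNAs, 13 higher and 29 lower, among them miR-804 (difference 4.99, adjusted p = 0.0205), miR-134-5p (4.52, adjusted p = 0.0404) and miR-652-5p (-1.95, adjusted p = 0.0447). Only 4 of these 42 were detected on all 7 arrays. Without the 48 h or without the 96 h array the count was 1.

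**Figure D2:**
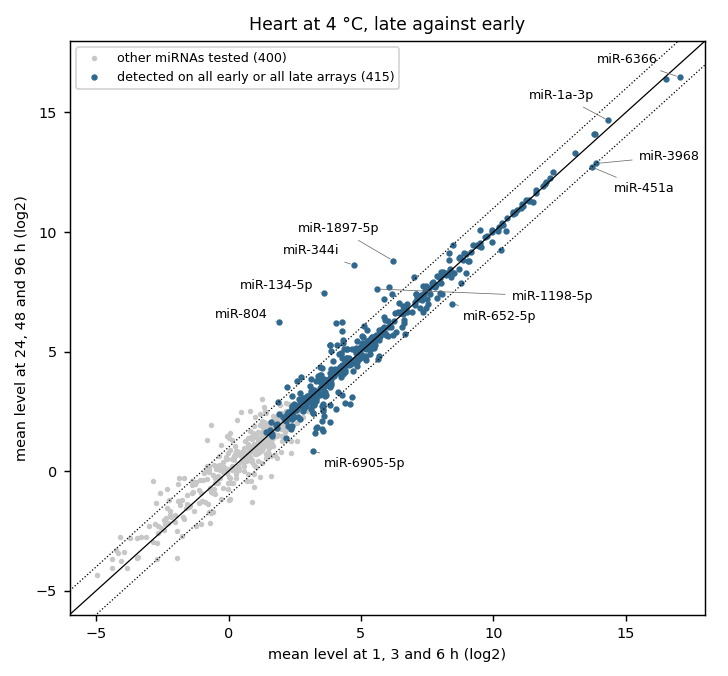
Mean VSN-normalized log2 level of each of the 815 miRNAs tested in the 3 late arrays (24, 48 and 96 h, vertical axis) against that in the 3 early arrays (1, 3 and 6 h, horizontal axis). The 415 miRNAs detected on all early or all late arrays are blue and the other 400 grey, the solid line marks equal levels and the dotted lines a 2-fold difference; miR-804, miR-134-5p and miR-344i lie farthest above the lines among the blue points.

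A gradual rise over the hours was the clearest pattern. In a limma fit of the level on the log2 of the hours over the 7 arrays, without the slide row, 52 miRNAs rose (6.38% of all tested) and 9 fell (1.1%). Of those that rose, 31 were detected on all 7 arrays, 11 on some and 10 on none, and of those that fell 2, 2 and 5. The split of 52 against 9 depended on the scaling of the arrays. It was 36 against 30 with the 75th percentile of the detected miRNAs, 38 against 15 with that of all miRNAs, 35 against 20 with no scaling, 35 against 39 with quantile normalization and 17 against 36 with normexp background correction and quantile normalization. All 31 miRNAs that rose and were detected throughout kept a positive slope under each of these 5 scalings, and 26, 28, 24, 22 and 13 of them were still called. The total of 61 also rested on single arrays, with 7 calls without the 1 h array, 20 without 3 h, 37 without 6 h, 24 without 48 h and 13 without 96 h.

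With the slide row as a block, which leaves only the change within the 1 to 6 h and within the 12 to 96 h arrays, limma called 2 miRNAs as rising (0.245%) and 0 as falling, against 99 and 25 at an unadjusted p below 0.05. These were miR-344i and miR-6958-5p, the latter detected on none of the 7 arrays. The slopes with and without the row come from the same 7 arrays, so that they are not independent of each other. Next among those with a positive slope within the rows came miR-134-5p, miR-1907 (0.44) and miR-598-5p (0.70), and on the negative side miR-138-2-3p, miR-153-3p, miR-411-5p, miR-31-3p (-0.31, adjusted p = 0.156) and miR-708-3p. Of these only miR-134-5p and miR-31-3p were detected on more than 1 of the 7 arrays.

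The widest rise among the 31 miRNAs that were detected throughout was that of miR-344i. Its levels were 3.48, 4.83 and 5.88 at 1, 3 and 6 h, 6.98 at 12 h, and 7.58, 8.61 and 9.66 at 24, 48 and 96 h. It was higher at every step than at the one before, the early and late values did not overlap, and the scanner signal behind these levels went from 9.03 to 761 units. The late mean exceeded the early mean by 3.88 (SE 0.77), or 14.8-fold, with a limma adjusted p of 0.142, and the level rose by 0.93 per doubling of the hours (SE 0.0263, adjusted p = 4.81e-06). Within the slide rows the slope was 0.91 (SE 0.0527, adjusted p = 0.00292).

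MiR-134-5p, a miRNA known from neurons, followed the same course. Its levels were 2.51, 4.05 and 4.24, then 5.69 at 12 h, and 6.09, 7.46 and 8.79 in the late arrays, and it was not detected at 1 h. The difference of the means was 3.85 (SE 0.80, limma adjusted p = 0.142) and the slope 0.92 per doubling (adjusted p = 0.000615). Within the rows the slope was the same to this precision, at an adjusted p of 0.108.

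MiR-804 had the largest difference of the miRNAs named here. Its levels were 1.53, 1.42 and 2.76 in the early arrays, where only the 3 h array carried the detection flag, 4.40 at 12 h, and 4.93, 6.25 and 7.53 in the late arrays, all detected. The early levels were thus those of signals near the background, between 1.32 and 4.59 units, against 22.0 to 173 units late. The difference of 4.33 (SE 0.73) corresponds to 20.1-fold between means that include 2 undetected arrays, with a limma adjusted p of 0.142. The level rose by 0.99 per doubling of the hours (adjusted p = 0.00407).

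MiR-1198-5p and miR-1897-5p rose early and then levelled off. MiR-1198-5p went from 4.85, 5.54 and 6.41 through 7.11 at 12 h to 7.40, 7.75 and 7.70 (difference 2.01, SE 0.40; slope adjusted p = 0.00576). MiR-1897-5p went from 5.40, 5.86 and 7.40 through 8.28 to 8.60, 9.09 and 8.69 (difference 2.57, SE 0.53; slope adjusted p = 0.0172). Both had values that did not overlap between early and late, and both were highest at 48 h.

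MiR-6538 climbed in smaller steps, with levels of 5.62, 5.96 and 6.64, then 7.06, and 7.32, 7.79 and 7.93 in the late arrays (difference 1.61, SE 0.31; slope 0.38, adjusted p = 0.00122). MiR-7226-5p went from 3.48, 3.80 and 4.19 through 4.50 to 4.61, 5.22 and 5.95. These and miR-344i were among 9 miRNAs detected on all early or all late arrays that rose at every step; 1 fell at every step. The largest step of miR-3474 and miR-7015-5p was the last, between 48 and 96 h. MiR-3474 went from 5.98 to 7.27 and miR-7015-5p from 5.58 to 6.84. Both had already risen by 48 h. The signal of miR-3474 was 15.1 units at 1 h and 54.3 at 48 h, that of miR-7015-5p 15.3 and 40.8.

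MiR-452-5p showed a step between the rows and not as a climb. It stood at 2.39, 2.11 and 2.13 early, at 4.56 at 12 h, and at 3.83, 3.38 and 3.28 late, so that its highest value came at 12 h and its slope within the rows was negative (-0.30, unadjusted p = 0.0162 in limma's fit across all miRNAs, no exact test being possible). The early signals, between 2.62 and 3.64 units, were near the background, and miR-452-5p was not detected at 1 h. Its difference of 1.29 (SE 0.19) had a limma adjusted p of 0.0947. It was called when the arrays were scaled to the 75th percentile of all miRNAs (adjusted p = 0.0439), not scaled (0.0387) or quantile normalized (0.0303). MiR-3058-3p was similar, with 2.27, 2.80 and 3.11 early, 3.93 at 12 h and 4.05, 3.86 and 3.83 late. MiR-712-5p had levels of 3.81, 3.93 and 4.07, then 4.50, and 4.66, 4.55 and 4.59 late, and miR-6971-5p had 2.39, 2.60 and 2.72, then 3.11, and 3.78, 3.39 and 4.08 late. For these 4 miRNAs the step between the slide rows and the step between 6 and 12 h cannot be told apart. MiR-6971-5p moved more within the later row, from 3.11 at 12 h to 4.08 at 96 h, than in that step.

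The 31 miRNAs that rose and were detected on all 7 arrays differed both in the size of the rise and in its course. Their differences, late minus early, went from 0.41 (miR-2861) to 3.88, with a median of 0.87, and 14 of them reached 2-fold. In 30 the early and late values did not overlap; the exception was miR-5119, at 4.64 at 3 h and 4.59 at 24 h. Their slopes went from 0.116 to 0.933 per doubling of the hours. Between miR-2861 and miR-344i lay miR-3960 (difference 0.51), miR-551b-5p (0.76), miR-7047-5p (0.99), miR-6937-5p (1.12), miR-290a-5p (1.19), miR-3473f (1.43) and miR-721 (2.12).

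These 31 were mostly miRNAs with high numbers, which are assigned in the order of description. Of them, 19 (61.3%) carried a number of at least 3000, 5 lay from 1000 up to there and 7 lay under 1000, while 308 of the 815 tested (37.8%) and 145 of the 415 detected on all early or all late arrays (34.9%) carried such a number. In the comparison of the groups, the 145 had a median difference of 0.15, with early and late values not overlapping upwards in 47 and downwards in 12, against 92 and 29 of all 415. The 248 with a number under 1000 had a median of -0.01, with 36 and 16.

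Their sequences were rich in G. A RefSeq sequence was matched for 27 of the 31 and for 680 of the 815 miRNAs tested (83.4%). The 27 had 27 different seeds, a median GC content of 63.6% against 54.5% for the 680, and a median G content of 41.7% against 30.4%. A GC content of 60% or more was found in 17 of the 27 (63.0%) and in 225 of the 680 (33.1%). The letters GGCUGG, searched on the miRNA strand and chosen after the sequences had been seen, were held by 9 of the 27 (33.3%) and by 27 of the 680 (3.97%). The longer GGGCUGG, which contains them, was held by 7 (25.9%) and 17 (2.5%).

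Some of the miRNAs that rose are alike over longer stretches, so that their probes may read the same RNA and their signals are uncertain as separate measurements. MiR-6937-5p and miR-7047-5p share the 13 bases AGGGCUGGGUCUG, which no other of the 680 holds. MiR-6937-5p was at 6.65, 7.03 and 7.32 early and 7.52, 8.34 and 8.49 late, and miR-7047-5p at 8.06, 8.48 and 8.88 early and 8.95, 9.64 and 9.81 late. Both dipped between 12 and 24 h, from 7.69 and from 9.10. MiR-344i and miR-1198-5p share the 10 bases UCCUGGCUGG, miR-3620-5p and miR-7221-3p the 12 bases CUGUGGGCUGGG, and miR-5119 and miR-7686-5p the 11 bases CCUGGGGCUGG.

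Of the miRNAs detected on all 7 arrays, miR-652-5p and miR-127-3p fell in the fit over time. This count of 2 was 13, 6, 8, 18 and 15 under the 5 other scalings, in the order given above, and 1 of the 2 lost its call with no scaling and with normexp. MiR-652-5p had levels of 8.55, 8.38 and 8.39 early, 8.06 at 12 h, and 8.03, 6.99 and 5.99 late, so that most of its fall came after 24 h. The scanner signal went from 338 units at 1 h to 58.7 units at 96 h. The late mean was 2.71-fold lower (difference -1.44, SE 0.50, limma adjusted p = 0.287), and the slope was -0.35 per doubling of the hours (adjusted p = 0.0441), or -0.46 within the rows (unadjusted p = 0.0301). The other arm of its hairpin, miR-652-3p, was at 6.25, 6.22 and 6.45 early, 5.87 at 12 h and 6.20, 5.70 and 5.59 late, a difference of -0.47 (SE 0.19, adjusted p = 0.304).

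MiR-127-3p, an imprinted miRNA, had levels of 3.81, 4.02 and 2.89 early, 2.76 at 12 h and 2.64, 2.65 and 2.47 late. It dropped between 3 and 6 h and hardly moved afterwards (slope adjusted p = 0.0484). The signals of miR-136-5p, miR-434-3p and miR-154-5p dropped at the same step. They were 9.8, 6.2 and 7.0 units at 3 h and 3.7, 3.3 and 4.2 units at 6 h. Of these only miR-136-5p was still detected at 6 h. Each hour was a separate piece, so that a difference between pieces and a fall over the hours cannot be told apart here. MiR-487b-3p, from the imprinted region of miR-127-3p, did not have this step. It was at 4.27, 4.36 and 4.16 early and at 4.14, 3.07 and 2.37 late. Limma called miR-487b-3p as lower without the 24 h array, with a difference of -1.54.

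The other miRNAs with the clearest separation downwards were dim. MiR-7234-3p had levels of 3.30, 3.24 and 3.22 early and 2.29, 1.56 and 0.91 late, on signals of 7.84 units at 1 h and 0.29 units at 96 h. MiR-6905-5p had 3.26, 3.05 and 3.20 early and 2.21, 0.55 and -0.26 late. Both were detected on all early arrays and, of the late ones, on the 24 h array alone, so that the lowest levels are those of signals at the background. MiR-8119 (difference -1.50), miR-6401 (-1.28), miR-669n (-0.84) and miR-191-3p (-0.51) had early and late values apart as well, and none was called in the comparison of the groups.

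The brightest signals of the array did not move together. MiR-6366 and miR-3963 carried 56.7%, 55.6% and 53.8% of the summed signal of all detected miRNAs in the early arrays, 55.0% at 12 h, and 52.6%, 49.4% and 44.9% in the late arrays (exact two-sided permutation test, p = 0.1, the smallest that 3 arrays against 3 allow). The summed signal was 359108, 373353 and 354984 units early, 329324 at 12 h, and 336835, 305139 and 283647 late (p = 0.1 by the same exact test). Without these 2 miRNAs it was 155408 to 165631 units early and 154350 to 159513 late (p = 0.3 by the exact test).

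MiR-6366 had levels of 17.02, 17.06 and 17.03 early and 16.93, 16.41 and 16.06 late (difference -0.57, SE 0.23, limma adjusted p = 0.304). MiR-3968 had 13.92, 14.02 and 13.68 early and 13.88, 12.87 and 11.85 late (difference -1.01, SE 0.51, adjusted p = 0.368). In both the lower values were those of 48 and 96 h, and the 24 h value of miR-3968 lay within the early range. MiR-5100, which shares the 9 bases CGAAUCCCA with miR-3968, was at 13.76, 13.77 and 13.86 early and 14.31, 14.16 and 13.81 late (difference 0.30). MiR-3963 shares the 8 bases AUCCCACU with miR-3968 and had a difference of -0.13.

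Detection hardly differed between early and late. The number of miRNAs detected was 422, 450 and 420 in the early arrays (mean 431 ± 16.8, SD, n = 3), 421 at 12 h, and 446, 412 and 422 in the late arrays (mean 427 ± 17.5, SD, n = 3). The difference of -4 gave p = 0.7 in an exact two-sided permutation test. Only miR-6769b-3p (mean level 2.39 early, 3.16 late) and miR-760-3p (1.85 and 2.87) were detected on 0 of 3 early and 3 of 3 late arrays, and only miR-7219-5p (2.18 and 1.37) the other way round. The 8 control probes above background had late minus early differences between -0.126 and 0.0163.

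The miRNAs of the heart's muscle cells differed by little, mostly upwards. Of 12 miRNAs of cardiac and skeletal muscle, 10 were detected on all early or all late arrays, with a median difference of 0.24 against 0.05 for all 415 such miRNAs. Early and late values did not overlap upwards in 6 of the 12 and downwards in 1, the undetected miR-206-3p, against 18.2% and 7.85% of all 815. Limma called 0 of the 12, as it did of all 815. MiR-1a-3p was at 14.46, 14.43 and 14.13 early, 14.70 at 12 h and 14.75, 14.63 and 14.61 late (difference 0.32, adjusted p = 0.312), and miR-133b-3p and miR-133a-3p differed by 0.25 and 0.24. MiR-499-5p, from an intron of a myosin heavy chain gene, had 9.04, 9.97 and 9.45 early and 10.15, 10.02 and 10.13 late (difference 0.62, adjusted p = 0.304). In bulk samples such as these, fewer cells of a type and less RNA per cell cannot be told apart.

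Vessel and stroma miRNAs had a median difference of -0.18 over the 9 measured. MiR-126a-3p of the endothelium was at 12.28, 12.32 and 12.17 early and 12.61, 12.48 and 12.39 late (difference 0.24). MiR-199a-3p and miR-214-3p, which mark fibroblasts, had differences of -0.26 and -0.45 with overlapping values, both being highest at 3 h.

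The blood-cell miRNAs had no steady course over the hours, and with 1 piece for each hour, piece and hour cannot be told apart. MiR-451a was at 12.60, 13.58 and 14.98 in the early arrays, 12.78 at 12 h, and 13.73, 12.28 and 12.14 in the late arrays. The 6 h piece was the highest and the 24 h piece the second highest, the groups overlapped, and the difference was -1.0 (SE 0.72, limma adjusted p = 0.50). MiR-144-3p, cut from a hairpin beside that of miR-451a, had the same order with 11.65 at 6 h and 10.23 at 24 h. The median difference of the 11 blood-cell miRNAs was -0.53, with 0 not overlapping, against 18.2% not overlapping upwards and 7.85% downwards among all 815. Limma called 0 of the 11, as it did of all 815.

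Further families followed the blood-cell course. The highest level was that of the 6 h piece for 7 of 11 blood-cell miRNAs, for 10 of 10 miRNAs of the miR-17-92 and miR-106b-25 clusters and for 4 of 7 of the miR-15, miR-16 and miR-195 family, against 118 of all 815 (14.5%). MiR-106b-5p stood at 7.32, 7.88 and 8.98 early and 7.99, 7.11 and 7.08 late, and miR-15b-5p at 8.15, 8.89 and 9.83 early and 8.95, 7.97 and 7.90 late. Their list medians were -0.58 and -0.29. The summed signal of 4 red cell markers was 6513, 12574 and 29805 units early, 6098 at 12 h, and 11499, 5131 and 5015 units late, and that of 5 white cell markers lay between 441 and 1399 units. That of the 5 heart muscle markers was 42624, 42204 and 34718 units early, 43142 at 12 h, and 44618, 46914 and 49380 units late. The share of blood in the pieces as a part of these values was not tested. MiR-344i did not have this course, at 5.88 at 6 h, 6.98 at 12 h and 7.58 at 24 h.

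**Figure D3:**
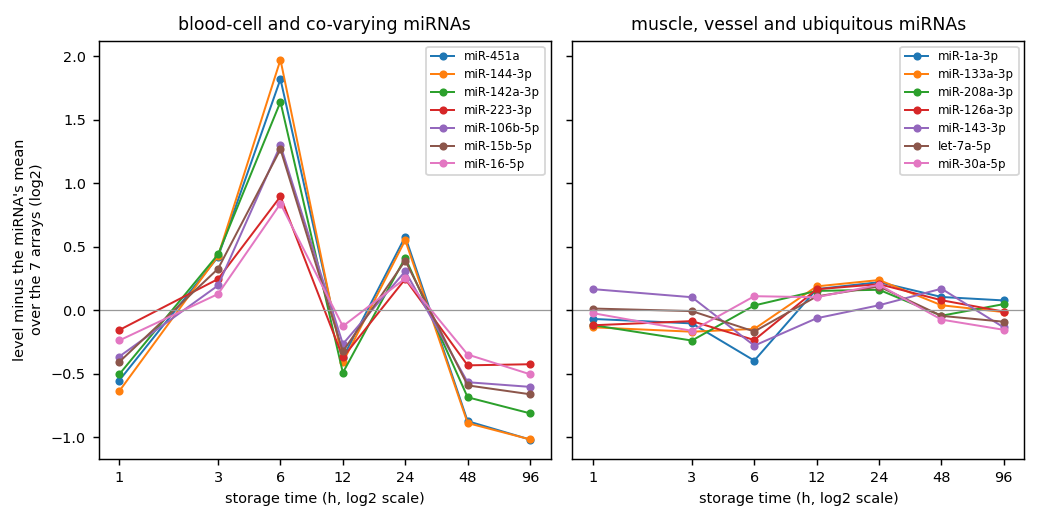
Level of each miRNA minus its own mean over the 7 arrays (log2, vertical axis) against storage time in hours (horizontal axis, log2 scale) in the heart at 4 °C, 1 array per point. The blood-cell and co-varying miRNAs on the left peak at 6 h and again at 24 h, and the muscle, vessel and ubiquitous miRNAs on the right stay within 0.5 of their means.

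The families that most tissues share were near 0. The let-7 and miR-98 guide strands had a median difference of 0.07 over 9 measured members, with let-7a-5p at 12.01, 11.99 and 11.83 early and 12.19, 11.96 and 11.91 late, and let-7f-5p differing by 0.12. The miR-30 guide strands had a median of 0.02, with miR-30c-5p at 0.07 and miR-30a-5p at 0.02. The miR-29 family had a median of 0.12, with miR-29a-3p at 0.10 and miR-29c-3p at 0.15, and the miR-23, 27 and 24 clusters one of -0.01, with miR-23a-3p at -0.01 and miR-24-3p at -0.02. Limma called 0 members of any of these lists, as it did of all 815 miRNAs. Early and late values did not overlap upwards in 2 of the 6 members of the miR-29 family, against 18.2% of all 815. Of the 10 let-7 and miR-98 guide strands this held for 1.

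Most smaller groups were as level, while the median of the miRNAs linked to stress was lower. The let-7 passenger strands had a median of -0.01 over 6 measured and a range from -0.32 to 0.23, with let-7b-3p at 0.15 and let-7f-1-3p at 0.23. In the miR-378 family the median was 0.08, with miR-378d at 0.07 and miR-378a-3p at 0.03. Of the miR-26 family, miR-26a-5p differed by -0.24 and miR-26b-5p by 0.12. Among 8 miRNAs linked to stress, 4 were measured, with a median of -0.27. MiR-21a-5p had a difference of -0.37 and was highest at 6 h. MiR-210-3p, a target of the hypoxia response, had one of -0.22, and miR-34a-5p, a target of p53, one of 0.32. None of these was called by limma, as none of all 815 was.

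Of 45 hairpins with both arms measured, the arm with the higher level in the heart at RT had a median difference of -0.0028 and the lower arm one of 0.011. The liver marker miR-122-5p was at 6.70, 7.38 and 7.06 early and 6.67, 6.84 and 7.37 late, with no order over the hours.

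**Figure D4:**
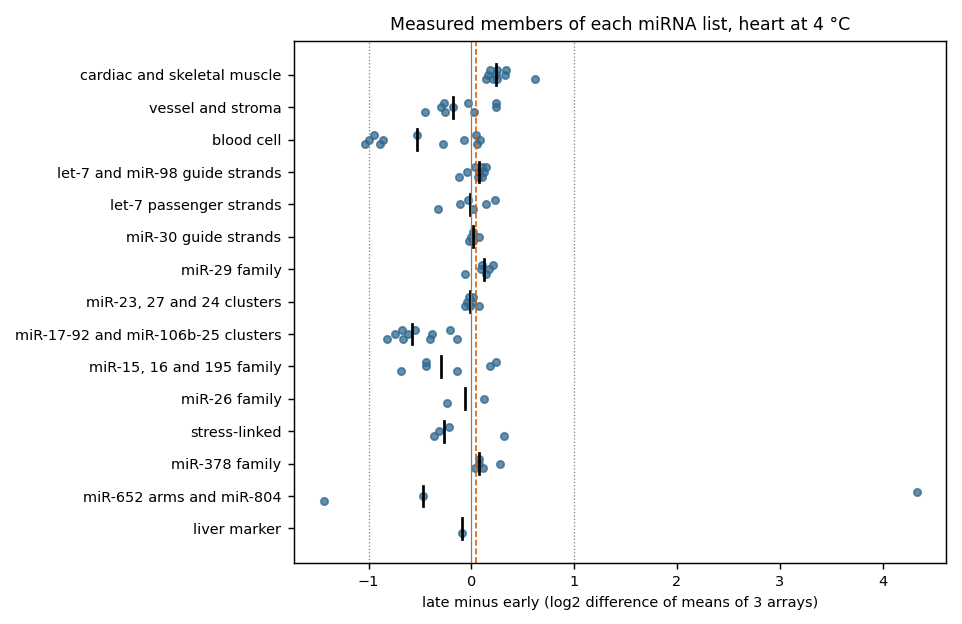
Late minus early difference of mean log2 levels in the heart at 4 °C (horizontal axis, 3 arrays against 3) for each measured member of 15 miRNA lists (rows), with the list's median as a black bar, the median of all 415 measured miRNAs as a dashed line and 2-fold differences as dotted lines. The medians of the blood-cell miRNAs (-0.53) and of the miR-17-92 and miR-106b-25 clusters (-0.58) lie to the left and that of the muscle miRNAs (0.24) to the right, and miR-804 lies far to the right at 4.33.

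In the heart stored at RT, from another mouse and on another slide, 4 of the leading miRNAs climbed faster and then came down again. Temperature, animal and slide cannot be told apart in this comparison. MiR-344i was at 4.18, 6.64 and 7.48 at 1, 3 and 6 h at RT, 7.77 at 12 h, and 7.0, 6.41 and 4.55 at 24, 48 and 96 h. The level of the cold heart at 12 h (6.98) lay between those of 3 and 6 h at RT. MiR-134-5p peaked at RT at 12 h (7.37) and ended at 4.97, and miR-804 peaked at 24 h (6.60) and ended at 5.05. MiR-1198-5p peaked at 6 h (7.53) and was at 4.18 at 96 h, below its level at 1 h (5.36). In the cold, miR-344i, miR-134-5p and miR-804 were highest at 96 h, and miR-1198-5p was at 7.75 at 48 h and 7.70 at 96 h. The RIN values at RT were 9.0, 8.6 and 8.5 at 1, 3 and 6 h, 8.5 at 12 h, and 8.2, 4.6 and 2.2 at 24, 48 and 96 h, so that the RNA differed in integrity as well.

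The interaction, late minus early at 4 °C against late minus early at RT, was called by limma for 0 of the 815 miRNAs (0%), with 45 higher and 112 lower at an unadjusted p below 0.05. This count rested on the RT array of 24 h, without which 297 were called, and it was 4 without the RT array of 1 h and 17 without that of 6 h. The leading miRNAs on the higher side were miR-6415 (2.24) and miR-7671-3p (2.13), both at an adjusted p of 0.106, then miR-3058-3p (2.82), miR-1198-5p (3.57, SE 0.886, adjusted p = 0.123) and miR-551b-5p (2.19). For miR-344i the interaction was 4.00 (SE 1.34, adjusted p = 0.219). The 5 leading miRNAs on the lower side, miR-466m-5p, miR-6348, miR-672-5p, miR-703 and miR-466j, were detected on none of the 7 cold arrays.

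MiR-6538 and miR-652-5p had other courses at RT. MiR-6538 was at 5.48, 6.90 and 7.16 early, 7.64 at 12 h, and 7.60, 10.45 and 10.78 late at RT, so that it went on climbing where the RNA was degraded. MiR-652-5p was at 8.56, 8.33 and 7.78 early and fell to 6.19 at 24 h, then stood at 6.39 and 6.94. Its lowest level at RT thus came at 24 h and in the cold at 96 h (5.99).

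In the brain stored at 4 °C, on another slide with the same hours in each row, the leading miRNAs had much the same courses. The methods take the tissues of one temperature from the same individual, while the RIN values in the labels equal those that the study lists for different animals, so that a shared animal of heart and brain is not settled. MiR-344i was at 4.09, 4.96 and 4.90 early, 7.07 at 12 h, and 7.76, 8.50 and 9.29 late, and miR-134-5p at 3.22, 3.41 and 3.80 early, 5.26 at 12 h, and 6.48, 7.57 and 8.66 late. MiR-804 was at 1.09, 1.78 and 1.40 early, detected on 0 of 3 arrays, and at 4.78, 6.60 and 7.02 late. MiR-652-5p was at 9.17, 8.81 and 8.77 early and 7.99, 7.85 and 6.85 late. In these 4 the early and late values of the brain did not overlap.

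Limma called 0 of the 815 miRNAs (0%) for a difference between heart and brain in late minus early, with 7 higher and 45 lower in heart at an unadjusted p below 0.05, and 21 without the heart array of 24 h. For miR-344i the difference was 0.02 (SE 0.92, adjusted p = 0.991), which does not show that the tissues act alike. The leading miRNAs were miR-708-5p, miR-1949, miR-691, miR-664-5p and miR-22-5p on the higher side and miR-7234-3p (-2.42), miR-6905-5p (-3.95), miR-466m-5p, miR-669o-5p and miR-190b-5p on the lower, at adjusted p values of 0.424 or above. In the cold heart miR-708-5p was detected on 1 of the 7 arrays, miR-691 at 12 h alone and miR-664-5p at 12 and 24 h. MiR-466m-5p and miR-669o-5p were detected on 0, and miR-1949 and miR-22-5p on all 7.

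For the 31 miRNAs that rose in the cold heart and were detected throughout, the late mean of the brain at 4 °C exceeded its early mean in 31, against 168 of the 415 measured in heart (40.5%). The brain values did not overlap upwards in 28 of the 31 (90.3%), against 67 of the 415 (16.1%) and 100 of all 815 (12.3%). The exceptions were miR-296-5p, miR-3099-3p and miR-712-5p. In the heart at RT the late mean was above the early mean in 26 of the 31, and the values did not overlap upwards in 17 (54.8%), against 43 of the 415 (10.4%) and 119 of all 815 (14.6%). The 5 with a negative difference at RT were miR-1198-5p (-1.56), miR-551b-5p (-1.43), miR-712-5p (-0.47), miR-344i (-0.11) and miR-1897-5p (-0.02). Early and late lay in different slide rows on these slides too, so that row and time cannot be told apart there either.

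**Figure D5:**
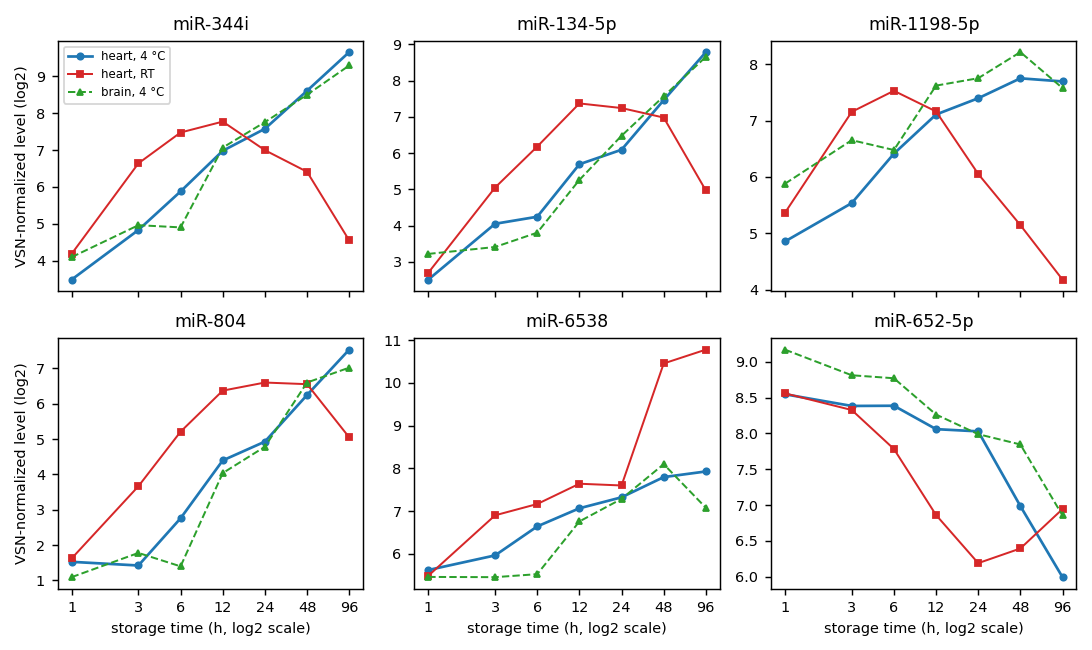
VSN-normalized log2 level (vertical axes, each panel with its own range) of 6 miRNAs against storage time in hours (horizontal axes, log2 scale) in the heart at 4 °C (blue circles), the heart at RT (red squares) and the brain at 4 °C (green triangles), 1 array per point. MiR-344i, miR-134-5p, miR-1198-5p and miR-804 peak between 6 and 24 h in the heart at RT, while both tissues at 4 °C are at or near their highest level at 48 or 96 h.

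The RT heart also gave the miRNAs that differed when heart RNA was degraded. With the 48 and 96 h arrays at RT set against the 6 from 0 to 24 h, limma called 296 miRNAs as higher (36.3%) and 94 as lower (11.5%). That split was 276 against 197, 236 against 282, 416 against 8, 248 against 253 and 274 against 215 under the 5 other scalings, in the order given above, and without the 96 h array the total of 390 went to 197, with the 48 h array alone assumed to vary like the 6 others. In the cold heart, the 107 of the 296 that were measured had a median late minus early difference of 0.21, with early and late values apart upwards in 43 and downwards in 8. The 31 measured of the 94 had a median of -0.13, with 2 and 4, and all 415 one of 0.05, with 92 and 29.

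Of the 31 miRNAs that rose in the cold, 23 were called higher in degraded RT heart, against 107 of the 415 measured and 296 of all 815 (36.3%). Of the others, 1 was lower (miR-551b-5p) and 7 were not called there, among them miR-344i, miR-1198-5p and miR-1897-5p. These calls are those of the deposited scaling, and the 23 were not counted again under the others. Across the 369 miRNAs detected on all 6 cold arrays, the difference in the cold and that in degraded RT heart had a Pearson r of 0.39 and a Spearman rho of 0.48. This is a description across miRNAs, which are not independent and share tissue and base composition. RIN in the cold hearts stayed at 8.1 or above, and its part in these values was not tested.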

How the data were processed

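Total RNA of single tissue pieces was hybridised by the authors to 1-colour Agilent mouse miRNA arrays. The authors deposited the background-subtracted intensity of each spot from Agilent Feature Extraction (version 10.10.1.1 per the file headers), the error and the detection flag as other values, and a VSN-normalized table on the log2 scale. The log2 table was used as deposited. A miRNA was tested if detected on at least 5 of the 45 arrays that remain without the heart array of 0 h at 4 °C, and called measured if detected on all early or all late arrays. For undetected miRNAs the deposited level is the VSN transform of the summed probe signals near the background, which can be negative.

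Late minus early, the slope on log2 hours and the interactions were fitted with limma 3.58.1 in R 4.3.3, with Benjamini-Hochberg adjustment over all miRNAs tested and a threshold of 0.05, in place of the rank test of the study, which cannot pass it with 3 arrays against 3. The code was tested on simulated data. Detected miRNAs and summed signals were compared by an exact permutation test. Alternatives were other scalings, filters, detection rules and each array left out, and, added after the data were seen, the storage hour as a block.

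The miRNAs named were the 8 a direction with the smallest p and no overlap, the 10 brightest, the leading members of each list, those leading each interaction, those gained or lost in detection, and miR-652-5p and miR-804. MiR-134-5p, miR-1897-5p and the other miRNAs of the fit without the slide row were added after their values were seen, as were that fit and the letters searched. The members and lists were chosen with earlier results of these data known.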

Additional observations from a re-analysis of the deposited data

How the results depend on the processing

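The comparison of late with early, with 0 miRNAs called, gave 2 with the 75th percentile of detected miRNAs, 3 with that of all miRNAs, 3 with no scaling, 2 with quantile normalization, 1 with the 12 h array counted as late, and 0 to 42 with 1 array left out. The slope within slide rows (2 calls) gave 1 under each of these 4 scalings, under no filter and under each stricter filter, 0 with normexp, 33 with time in hours, 61 without the row and 0 to 4 with 1 array left out. Without the row, no filter left 11 of 61 calls, hours in place of log2 hours gave 42 rising and 35 falling, and 1 array left out gave 7 to 87. The interaction with RT (0 calls) gave 2, 3, 3 and 1 with the 75th percentiles, quantile and normexp scaling, 2 with no filter and 0 to 297 with 1 array left out. That with brain (0 calls) gave 1, 2, 2 and 2 with the first 4 scalings and 0 to 21. The 390 calls of degraded RT heart became 871 with no filter, 167 and 104 with stricter filters and 197 to 456. The difference of -4 detected miRNAs ranged from -13.7 to 5.67. Of 16 list medians over all tested members 6 were positive, 2 with the 75th percentile of detected miRNAs and 4 to 9 with 1 array left out.

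Among the miRNAs named, the late minus early difference turned to 0.0115 for miR-6366, 0.478 for miR-3963 and 0.0360 for miR-451a when the 0 h array was counted as early, and for miR-3963 ranged from -0.328 to 0.0585 with 1 array left out, the latter without the 96 h array. The slope turned to -0.00320 for miR-29a-3p with the 75th percentile of detected miRNAs, to -0.000181 for miR-29a-3p and -5.77e-06 for miR-5100 in hours, and for miR-3963 to 0.00663 with normexp, while with 1 array left out it ranged from -0.0847 to 0.0152, the latter without the 96 h array. The cause was not tested. The other differences and slopes that were recomputed, those of the miRNAs with the smallest p, of the brightest and of miR-134-5p, miR-1897-5p and miR-290a-5p, kept their direction. Most list members were not recomputed singly, and the median of the miR-30 guide strands ranged from -0.0891 to 0.0835 with 1 array left out. Within the cold heart no paired analysis was possible because every label carries the same replicate number. With the storage hour as a replicate block, the interaction with RT gave 1 call, on the lower side, and that with brain 0. The smallest limma adjusted p was 0.0235 with RT and 0.0549 with brain, against 0.106 and 0.424 without the block. Deviations of arrays of the same hour correlated between -0.00175 and 0.364 for heart at 4 °C and at RT and between -0.0738 and 0.360 for heart and brain. Most of these correlations were positive, and they do not settle whether the hour is a pairing. The counts of 0 given above are those without the block.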

Other observations

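The heart array of 0 h at 4 °C, in no comparison above, carried 215 detected miRNAs and a summed signal of 201161 units, although its RNA had a RIN of 8.8. On it miR-1a-3p was at 10.73, miR-126a-3p at 8.34 and let-7a-5p at 8.33, each more than 3 log2 units below its level at 1 h. MiR-652-5p was at 6.23, close to its level at 96 h. MiR-344i stood at 2.31, below all 7 later values, while miR-804 stood at 2.20, within the range of its early values.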
